A study of Mus musculus with 16 samples.

Results

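Loss of p16 was examined in the hippocampus of tau transgenic mice by bulk RNA sequencing, in the 4 libraries labelled PS19_p16KO against the 4 labelled PS19. The members were taken by their labels alone and are 8 of the 16 libraries of the study. All mice were 8-month-old females. PS19_p16KO mice carried the PS19 tau transgene and a knockout of p16, and PS19 mice carried the transgene with the p16 gene intact. The other 8 libraries came from mice without the transgene, 4 with the p16 knockout (p16KO) and 4 wildtype (WT), and they were used for the shared estimate of spread and to set the p16 effect with the transgene beside the effect without it. Whether the 4 samples of each group are 4 different mice is not stated, and p-values therefore reflect only how far these samples spread. In the tests across genes this spread was estimated over all 4 groups together. The labels limit the knockout to no cell type.

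PS19 is a mouse line in which the promoter of the prion protein gene Prnp drives a human tau protein with a disease mutation, and it serves as a tauopathy model. The p16 protein binds cyclin-dependent kinases and stops the cell cycle, and its expression is a common marker of senescent cells. In tauopathy, microglia, the resident macrophages of the brain, switch on a program of phagocytic receptors, lysosomal proteins, complement and chemokines, and astrocytes raise Gfap and other reactive genes. Bulk RNA cannot tell fewer cells of a type from less RNA per cell, and this holds for every gene below.

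The 16 libraries held 18485552 to 22311322 gene counts. All levels below are in CPM, the counts of a gene after TMM scaling of the libraries, and 16372 genes passed the filter on low counts. The markers of hippocampal neurons (Prox1, C1ql2, Wfs1, Fibcd1, Neurod6 and Slc17a7) summed to 2544 to 2865 CPM in PS19_p16KO and 2028 to 2716 CPM in PS19 libraries. PS19_p16KO library 3 stood apart in genes of the choroid plexus, the epithelium that makes cerebrospinal fluid, with 5122 CPM of Ttr against 7.39 to 21.9 CPM in the other PS19_p16KO libraries. These genes are therefore described separately at the end. Mitochondrial transcripts took 1.44% to 1.85% of the counts in PS19_p16KO and 1.25% to 2.14% in PS19 libraries.

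Cdkn2a, which encodes p16 and a second, unrelated protein from another reading frame, lies on chromosome 4 at 89274471 to 89294653 (GRCm38) and was too low for the test across genes. It had 1, 1, 0 and 0 counts in PS19_p16KO libraries 1 to 4, against 8, 4, 1 and 5 counts in PS19 libraries 1 to 4. The libraries without the transgene held 1, 1, 1 and 0 counts in p16KO and 1, 1, 4 and 2 in WT. The PS19_p16KO libraries averaged 0.0252 ± 0.0292 CPM and the PS19 libraries 0.237 ± 0.158 CPM (SD, n = 4 each). In CPM the groups did not overlap, and the exact two-sided permutation p was 0.0286, the smallest that 70 assignments allow. PS19 library 3 held 1 count, as did PS19_p16KO libraries 1 and 2. The counts come from the whole gene, so they do not separate p16 from the other product, and the labels do not say which part of the gene the knockout removes.

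Prnp reads check the transgene label, since the construct carries Prnp sequence. Prnp was at 1786 to 1924 CPM in PS19_p16KO and 1502 to 1965 CPM in PS19 libraries (log2 0.08 ± 0.07, adjusted p = 0.789), against group means of 1066 CPM in p16KO and 1023 CPM in WT. Mapt, the mouse tau gene, was at 545 to 598 CPM in PS19_p16KO and 477 to 557 CPM in PS19 libraries, with overlapping groups (log2 0.16 ± 0.06, adjusted p = 0.361). Neither gene passed edgeR's quasi-likelihood test between the transgenic groups.

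With p16 lost, far more genes fell than rose. At an adjusted p under 0.05 by edgeR's quasi-likelihood test, 135 of 16372 genes differed between PS19_p16KO and PS19, which is 0.825% of those tested. Of these, 127 were lower (0.776% of genes tested) and 8 were higher (0.0489%) in PS19_p16KO. The falls were large, with a median log2 fold change of -1.12 and 74 genes below -1, that is, to under 50% of the PS19 level. The rises were small, with a median of 0.411 and a largest value of 0.846. Across all genes tested the median log2 fold change was 0.00176. In 118 of the 135 genes (0.721% of genes tested) the 4 PS19_p16KO libraries did not overlap the 4 PS19 libraries. Over all tested genes 4.09% showed no overlap, 2.53% with PS19_p16KO lower and 1.56% with it higher. At an unadjusted p under 0.05 there were 1406 genes, or 8.59%.

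The count of calls depended on the libraries and the spread used. It came to 8 when only these 8 libraries were fitted, in which the spread is estimated from 2 groups, and to between 29 and 347 when 1 library was left out. No called gene changed sign in any of the 20 alternatives, and 5 genes were called in every one of them: Arhgef19, C3ar1, Pdcd1, Siglecf and Slamf9. For the 118 called genes whose libraries did not overlap, a change of sign could hardly occur when 1 library is left out. Without the 3 libraries richest in choroid plexus genes there were 62 calls, of which 51 were among the 135.

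Falls were found in each of the lists of disease-associated microglial, resting microglial, general myeloid and leukocyte signalling genes. The lists and their members were chosen with earlier results of these data known, so the counts by list here and below are a description. For comparison, 0.776% of all tested genes were called lower and 0.0489% higher. Of 23 tested genes of the disease-associated microglial program, 8 fell and none rose, and the list's median log2 fold change was -0.692. The 8 calls became 5 without PS19 library 1 or PS19_p16KO library 1, 4 without PS19 library 2 or PS19_p16KO library 2, 3 or 4, and 13 without PS19 library 3. Itgax, which encodes the integrin chain CD11c (chromosome 7, 128129547 to 128150657), had 1.19, 0.266, 1.75 and 0.655 CPM in PS19_p16KO libraries, against 28.2, 20.3, 3.94 and 14.8 CPM in PS19 libraries. The groups did not overlap, and PS19 library 3 was the nearest to the PS19_p16KO range. The log2 fold change was -4.11 ± 0.58 (adjusted p = 0.00693), and WT libraries averaged 0.896 CPM.

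Clec7a, the beta-glucan receptor Dectin-1, had 1.67, 1.06, 2.12 and 0.874 CPM in PS19_p16KO libraries, against 23.3, 22.4, 4.86 and 12.8 CPM in PS19 libraries. Cst7, which encodes cystatin F, an inhibitor of lysosomal cathepsins, had 0.286, 0.319, 0.689 and 0.382 CPM in PS19_p16KO libraries, against 9.53, 9.87, 0.971 and 6.03 CPM in PS19 libraries. In both genes every PS19_p16KO library was below every PS19 library, and PS19 library 3 held the lowest value of its group. The log2 fold changes were -3.46 ± 0.42 for Clec7a (adjusted p = 0.00267) and -3.97 ± 0.56 for Cst7 (adjusted p = 0.00547).

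The signalling pair Trem2, a lipid-sensing receptor, and Tyrobp, its adaptor, fell together. Trem2 had 12.8, 12.4, 13.6 and 9.45 CPM in PS19_p16KO libraries, against 47.3, 36.0, 17.1 and 26.0 CPM in PS19 libraries (log2 -1.39 ± 0.25, adjusted p = 0.0227). Tyrobp had 7.97, 5.85, 7.79 and 6.94 CPM in PS19_p16KO libraries, against 25.6, 24.6, 9.55 and 17.1 CPM in PS19 libraries (log2 -1.43 ± 0.23, adjusted p = 0.00748). Neither gene overlapped between groups. Axl, a receptor tyrosine kinase for the uptake of dying cells, fell less, with 51.4 to 55.8 CPM in PS19_p16KO and 56.8 to 97.0 CPM in PS19 libraries (log2 -0.63 ± 0.11, adjusted p = 0.0171). Cd52, a small surface glycoprotein of leukocytes, fell by 2.21 ± 0.37 on the log2 scale (adjusted p = 0.00693), and its libraries overlapped at PS19 library 3, with 1.03 CPM. Gpnmb and Lyz2, a lysosomal glycoprotein and lysozyme, were the other called members, at log2 -1.16 and -2.18.

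Calls were fewer among genes of resting microglia, where 2 of 18 tested members fell, none rose and the median was -0.295. The 2 calls became 0 without PS19 library 2 or PS19_p16KO library 1, 2 or 4, 1 without PS19 library 1 or 4 or PS19_p16KO library 3, and 7 without PS19 library 3. Csf1r, the receptor for the growth factor that keeps microglia alive, had 110, 94.7, 99.3 and 92 CPM in PS19_p16KO libraries, against 201, 158, 113 and 146 CPM in PS19 libraries (log2 -0.64 ± 0.13, adjusted p = 0.0388). Fcrls, an Fc receptor-like protein of microglia, fell by 1.12 ± 0.20 on the log2 scale (adjusted p = 0.0175). Among the members that did not pass the test, the fractalkine receptor Cx3cr1 averaged 51.5 ± 3.90 CPM in PS19_p16KO and 71.2 ± 16.2 CPM in PS19 libraries (SD, n = 4 each; adjusted p = 0.0582). Tmem119 averaged 23 ± 1.34 CPM in PS19_p16KO and 22 ± 2.37 CPM in PS19 libraries, and P2ry12, a purinergic receptor, averaged 32.7 ± 1.56 CPM in PS19_p16KO and 28.7 ± 4.34 CPM in PS19 libraries. The microglial markers Cx3cr1, P2ry12, Tmem119, Csf1r and Aif1 summed to 201 to 227 CPM in PS19_p16KO and 227 to 361 CPM in PS19 libraries, and their part in the falls was not tested.

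Of 21 general myeloid genes 8 fell, none rose and all 21 had a negative fold change, with a median of -0.777. The 8 calls became 2 without PS19 library 2, 3 without PS19_p16KO library 2 or 4, and 16 without PS19 library 3. Ptprc, the leukocyte phosphatase CD45, had 5.11, 3.40, 5.51 and 4.10 CPM in PS19_p16KO libraries, against 15.5, 13.4, 6.80 and 8.91 CPM in PS19 libraries (log2 -1.30 ± 0.22, adjusted p = 0.00739). Laptm5, a lysosomal membrane protein of haematopoietic cells, Itgb2, the integrin chain CD18, and Csf3r, the receptor for granulocyte colony-stimulating factor, fell by 0.90, 1.21 and 1.13 on the log2 scale. The transcription factors Irf8 and Irf5 and Unc93b1, which carries Toll-like receptors to endosomes, also fell. Irf8 overlapped between groups at PS19 library 3, with 7.07 CPM against a highest PS19_p16KO value of 7.10 CPM.

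Signalling genes of leukocytes held the most calls of any list, with 15 of 40 tested members lower and none higher (median -0.653). They included the tyrosine kinases Fgr, Lyn and Btk, the phosphatases Ptpn6 (SHP-1) and Inpp5d (SHIP1), the Rac activators Dock2 and Dock8 with the GTPase Rac2, and the adaptors Fyb, Lcp2 and Lat2. Dock2 had 6.06, 5.37, 4.13 and 5.73 CPM in PS19_p16KO libraries, against 15.2, 14.3, 7.34 and 9.94 CPM in PS19 libraries (log2 -1.14 ± 0.20, adjusted p = 0.0109). Ptpn6 had 4.53, 3.56, 4.98 and 3.5 CPM in PS19_p16KO libraries, against 10.3, 9.87, 5.23 and 8.26 CPM in PS19 libraries (log2 -1.02 ± 0.19, adjusted p = 0.0134). No PS19_p16KO library reached the lowest PS19 library in either gene. None of the 40 was called without PS19 library 1 or 2 and 23 without library 3, and 4, 1, 9 and 2 were called without PS19_p16KO libraries 1 to 4.

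Receptors of the Siglec, SLAM and checkpoint families had the lowest median of the lists with more than 2 tested members, -1.58, and 8 of 16 tested members fell. Leaving out 1 library gave 5 to 11 calls, the 5 without PS19 library 2 or PS19_p16KO library 1, 2 or 4. Pdcd1, the checkpoint receptor PD-1 (chromosome 1, 94038305 to 94052553), had 0.191, 0.0532, 0.106 and 0.109 CPM in PS19_p16KO libraries, against 3.02, 2.94, 1.35 and 1.25 CPM in PS19 libraries (log2 -4.13 ± 0.55, adjusted p = 0.00174). Lag3, another checkpoint receptor, had 6.39, 5.79, 7.53 and 6.55 CPM in PS19_p16KO libraries, against 46.9, 27.6, 10.4 and 20.1 CPM in PS19 libraries (log2 -2.0 ± 0.34, adjusted p = 0.0171). Both genes separated the groups without overlap. T cells are known for both genes, and the T, B and NK cell markers Cd3e, Cd8a, Cd79a and Nkg7 summed to 0.477 to 0.904 CPM in PS19_p16KO and 0.324 to 1.24 CPM in PS19 libraries, none of them high enough for the test. Pdcd1 reached at most 0.191 CPM in PS19_p16KO, 0.225 CPM in p16KO and 0.45 CPM in WT libraries. It therefore passed the filter on low counts through its PS19 level alone. Other genes low outside PS19 may have passed in the same way, here and in other lists. With 16 of 19 members tested, the median and the calls of this list depend partly on that filter.

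Slamf9 and Siglecf, like Pdcd1, were called in every alternative tried. Slamf9, a SLAM receptor of macrophages, had 0.620, 0.372, 0.901 and 0.601 CPM in PS19_p16KO libraries, against 4.09, 3.56, 2.10 and 2.66 CPM in PS19 libraries (log2 -2.30 ± 0.29, adjusted p = 0.0011). Siglecf, a sialic acid-binding receptor that microglia can express, had 1.05, 0.531, 0.848 and 0.874 CPM in PS19_p16KO libraries, against 5.38, 4.37, 3.18 and 2.5 CPM in PS19 libraries (log2 -2.21 ± 0.34, adjusted p = 0.00439). In both, the lowest PS19 library was more than 2-fold above the highest PS19_p16KO library. Cd22, Ly9 and Cd84 of the same families fell by 2.95, 2.38 and 1.84 on the log2 scale, and Pirb, a paired immunoglobulin-like receptor, by 1.92.

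Innate sensing, chemokine and complement genes followed. Among Toll-like receptor and inflammasome genes 4 of 22 tested fell (median -0.801): Ly86 and Cd180, which form a receptor complex, Tlr13, a sensor of bacterial RNA, and Cd14, a co-receptor for lipopolysaccharide. Ly86 had the smallest adjusted p of these, with 5.13 to 8.00 CPM in PS19_p16KO and 10.1 to 26.2 CPM in PS19 libraries (log2 -1.5 ± 0.25, adjusted p = 0.00947). Of 10 tested chemokines and their receptors 4 fell, namely Ccl6, Ccl9, Ccl3 and Cxcl10 (median of the list -0.828). In both lists leaving out 1 library moved the 4 falls. They became 0 to 9 in the Toll-like receptor list and 1 to 5 in the chemokine list. Each list had its highest count without PS19 library 3, where 1 gene of the chemokine list also rose. Ccl6, a monocyte attractant of mice, had 2.43, 1.54, 2.97 and 1.04 CPM in PS19_p16KO libraries, against 11.4, 13.1, 4.59 and 6.95 CPM in PS19 libraries, with no overlap (log2 -2.17 ± 0.32, adjusted p = 0.00439).

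Of 17 complement genes 5 fell (median -0.423). A single call was left without PS19 library 2 or PS19_p16KO library 1, 2 or 4, and 2 without PS19_p16KO library 3. C3ar1, which binds the complement fragment C3a (chromosome 6, 122847138 to 122856161), had 1.72, 1.86, 2.70 and 2.51 CPM in PS19_p16KO libraries, against 8.45, 9.25, 4.48 and 7.01 CPM in PS19 libraries (log2 -1.73 ± 0.21, adjusted p = 0.0011). C4b, a component of the classical pathway, had 76.5, 63.0, 69.9 and 76.0 CPM in PS19_p16KO libraries, against 311, 277, 107 and 183 CPM in PS19 libraries (log2 -1.62 ± 0.26, adjusted p = 0.0171). Both genes kept the groups apart, and PS19 library 3 was again the lowest of its group. The 3 chains of C1q, the starter of that pathway, fell by 1.32 (C1qa), 1.32 (C1qb) and 1.23 (C1qc) on the log2 scale. C3 itself averaged 4.73 ± 0.783 CPM in PS19_p16KO and 9.55 ± 3.6 CPM in PS19 libraries (SD, n = 4 each) and did not pass the test (adjusted p = 0.355).

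Of 34 lysosomal genes 7 fell, with a list median of -0.294. Cst7, described above, is counted in this list and not among the disease-associated microglial genes. The calls became 4 without PS19 library 2 or PS19_p16KO library 2 or 4, and 16 without PS19 library 3. Cd68, a lysosomal glycoprotein of phagocytes, had 5.44, 5.10, 6.25 and 5.30 CPM in PS19_p16KO libraries, against 21.5, 16.9, 7.61 and 13.4 CPM in PS19 libraries (log2 -1.43 ± 0.23, adjusted p = 0.00693). Ctsh, a cathepsin, had 9.88, 7.34, 8.48 and 7.10 CPM in PS19_p16KO libraries, against 23.1, 20.9, 10.6 and 16.9 CPM in PS19 libraries (log2 -1.12 ± 0.17, adjusted p = 0.00594). The ranges of the groups were separate in both. Ctss, another cathepsin, Grn, which encodes progranulin, Hexa, a subunit of beta-hexosaminidase, and Slc11a1, a metal transporter of phagosomes, fell by 1.30, 0.69, 0.45 and 1.76 on the log2 scale. Fcgr1, a high-affinity receptor for antibodies, was the single called gene of 5 Fc receptors (log2 -1.16 ± 0.24, adjusted p = 0.0234).

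Antigen presentation and interferon genes had mostly negative fold changes and seldom passed the test. H2-Ob, a class II molecule that modulates peptide loading, was the only called gene of 9 tested class II genes (log2 -2.31 ± 0.42, adjusted p = 0.0109), and the list median was -1.28. Cd74, the invariant chain, averaged 5.63 ± 2.69 CPM in PS19_p16KO and 19.1 ± 9.55 CPM in PS19 libraries (SD, n = 4 each; adjusted p = 0.108). None of 13 class I genes passed, although all 13 had a negative fold change with a median of -0.503. B2m, the class I light chain, had 72.9, 54.5, 68.7 and 56.5 CPM in PS19_p16KO libraries, against 146, 116, 67.5 and 94.9 CPM in PS19 libraries (adjusted p = 0.102). PS19 library 3 lay inside the PS19_p16KO range. Of 29 tested interferon-response genes none passed, 27 were negative and the median was -0.578. In that list the PS19_p16KO libraries were themselves spread, with a median SD of log2 CPM of 0.537 in PS19_p16KO and 0.401 in PS19.

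**Figure D1:**
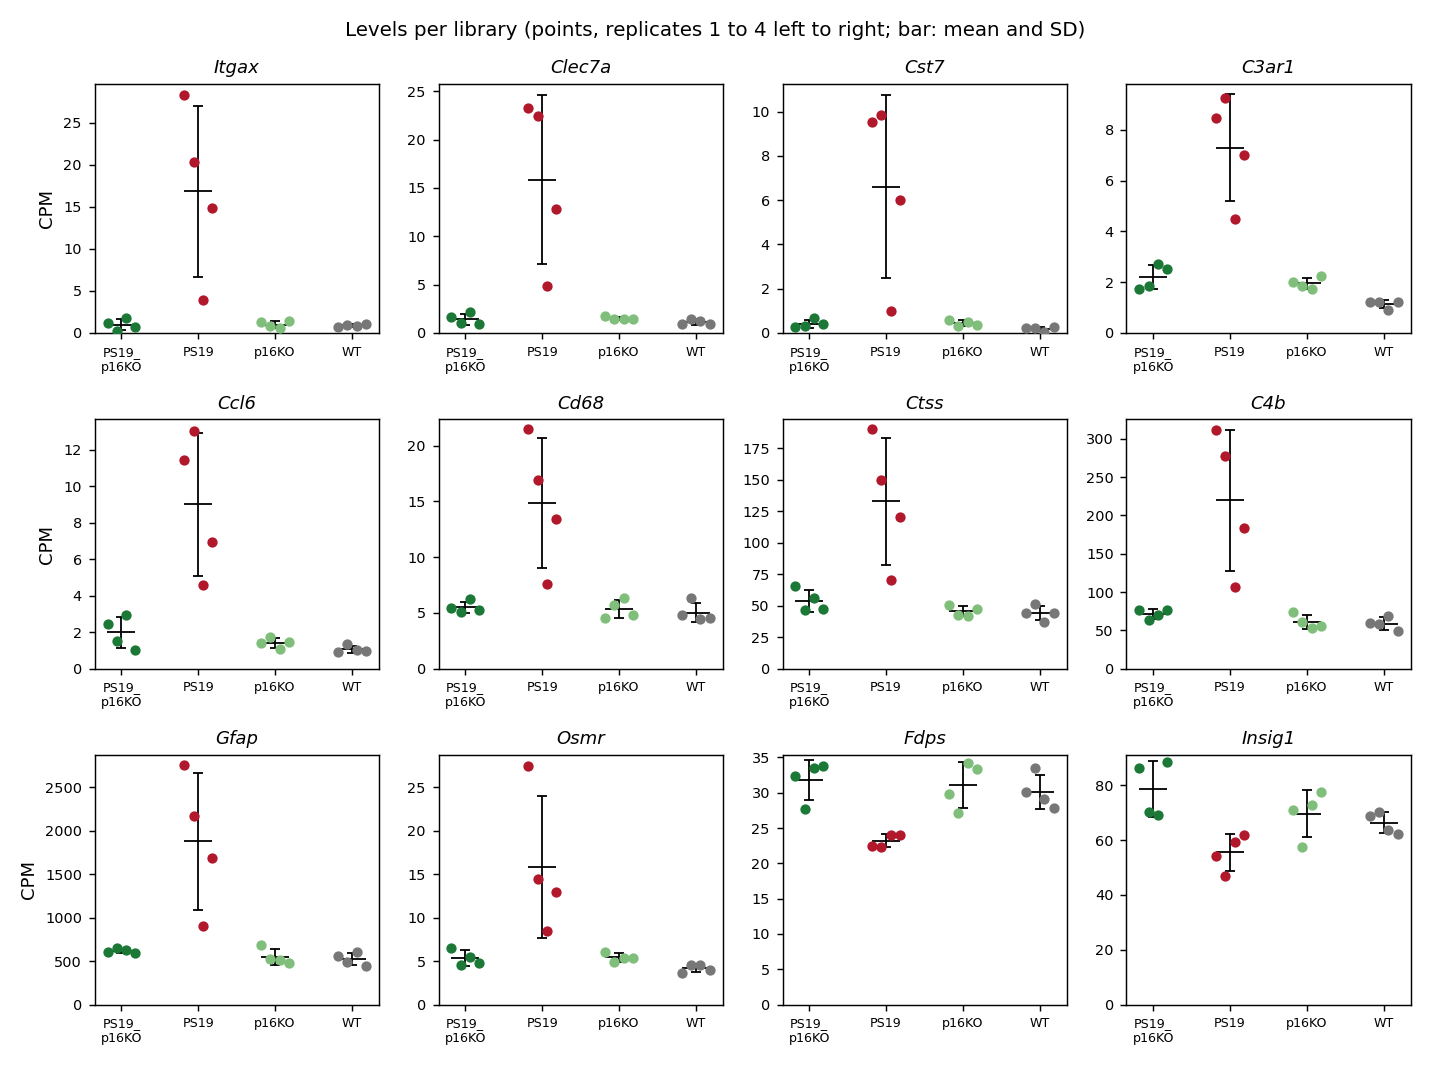
CPM of 12 genes in each library (points, y axis from 0) with the group mean and SD (bars), for PS19_p16KO, PS19, p16KO and WT. Itgax, Clec7a, Cst7 and Gfap are high in PS19 libraries 1, 2 and 4 and nearer to the other groups in library 3, while Fdps and Insig1 are lowest in PS19.

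**Figure D2:**
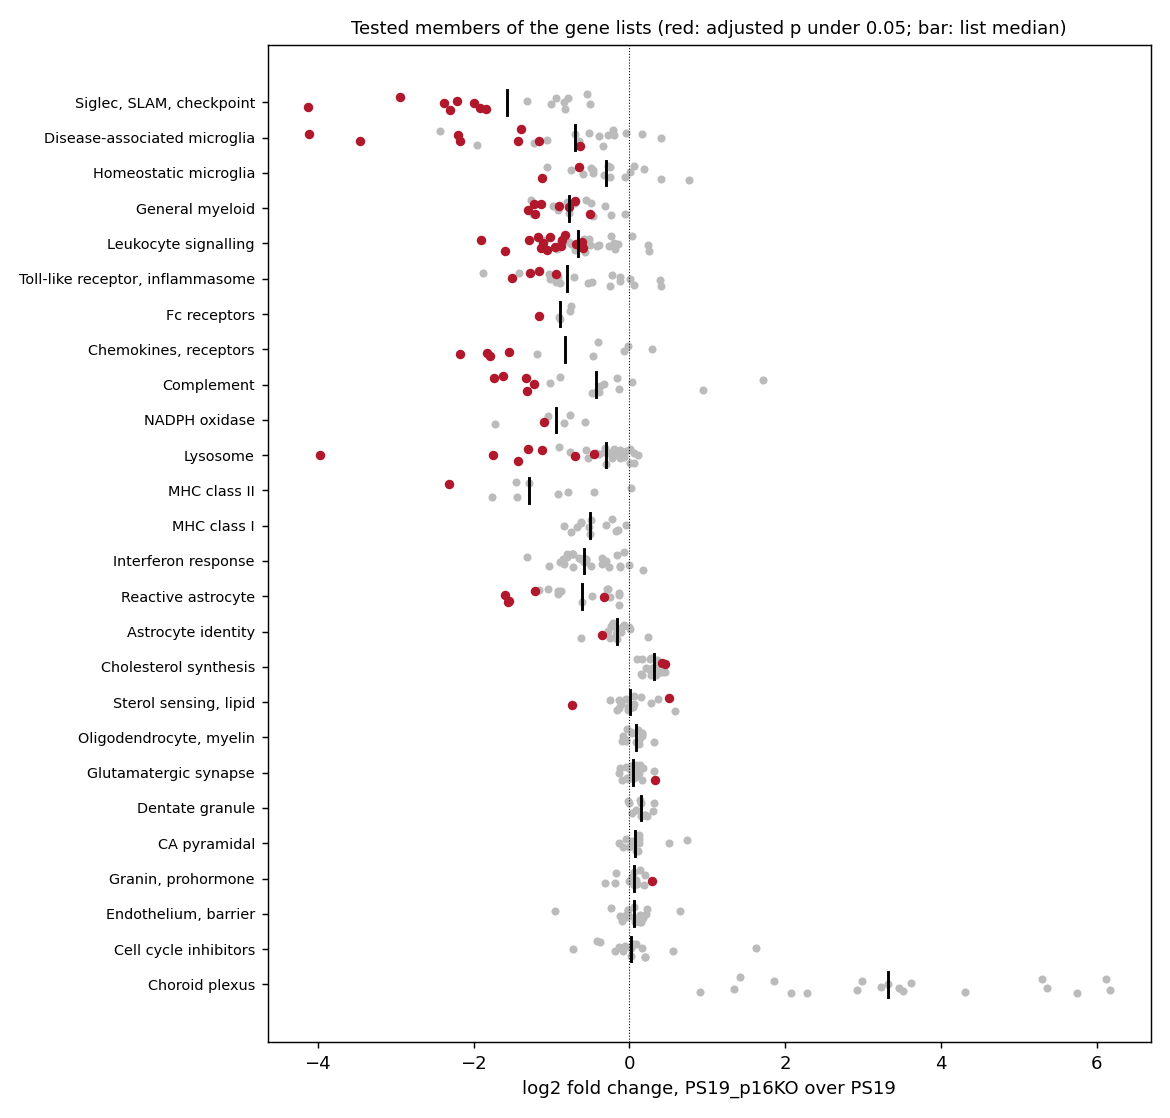
Log2 fold change of PS19_p16KO over PS19 (x axis) for every tested member of 26 gene lists (y axis), with called genes in red and the list median as a bar. The medians of the immune and reactive astrocyte lists lie left of 0, some immune lists have members right of it, all cholesterol synthesis genes lie right of it, and the choroid plexus list reaches 6.18 without a called gene.

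The promoters of a few of these genes are shown for the motif AGGAAGT, a core that the macrophage factor PU.1 binds, counted on both strands in the 250 bases before the RefSeq start. Among the 94 falls with a promoter entry, 19 held it in any entry (20.2%), against 8.8% of 27025 genes with an entry. Those 27025 genes were taken whether or not they were tested here. The match is a description of letters, and no binding was measured here. Slamf9, Cst7 and Ccl6 hold it and C3ar1 does not. The sequences are from RefSeq (GRCm38.p6), written 5′ to 3′ along the gene's strand, with each match in capitals, and in Ccl6 it stands on the opposite strand as ACTTCCT. They are Slamf9 at chr1:172475110-172475359 on the plus strand, Cst7 at chr2:150570165-150570414 on the plus strand, Ccl6 at chr11:83593088-83593337 on the minus strand and C3ar1 at chr6:122856158-122856407 on the minus strand.
Slamf9: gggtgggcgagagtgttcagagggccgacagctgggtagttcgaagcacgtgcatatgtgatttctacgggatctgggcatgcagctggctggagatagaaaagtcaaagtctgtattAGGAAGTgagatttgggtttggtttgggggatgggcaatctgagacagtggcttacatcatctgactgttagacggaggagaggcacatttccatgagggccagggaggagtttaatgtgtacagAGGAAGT
Cst7: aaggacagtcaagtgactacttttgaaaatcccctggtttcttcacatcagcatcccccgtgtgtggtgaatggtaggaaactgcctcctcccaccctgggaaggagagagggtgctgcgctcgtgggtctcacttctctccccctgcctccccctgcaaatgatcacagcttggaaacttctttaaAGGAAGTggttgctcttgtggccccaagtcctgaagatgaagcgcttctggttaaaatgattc
Ccl6: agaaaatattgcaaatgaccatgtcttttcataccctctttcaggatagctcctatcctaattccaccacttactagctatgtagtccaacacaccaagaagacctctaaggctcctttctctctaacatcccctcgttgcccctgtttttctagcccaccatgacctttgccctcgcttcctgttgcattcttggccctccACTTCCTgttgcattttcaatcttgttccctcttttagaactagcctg
C3ar1: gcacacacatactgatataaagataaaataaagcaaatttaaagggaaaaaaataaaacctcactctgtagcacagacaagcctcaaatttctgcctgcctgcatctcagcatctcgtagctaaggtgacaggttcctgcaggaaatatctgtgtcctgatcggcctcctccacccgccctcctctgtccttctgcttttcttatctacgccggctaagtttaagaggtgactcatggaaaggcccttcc

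Part of the reactive astrocyte genes fell too. Of 19 tested members 5 fell, none rose, and all 19 had a negative fold change, with a median of -0.605. The 5 calls became 0 to 4 without any 1 of the PS19_p16KO libraries, 2, 1, 10 and 4 without PS19 libraries 1 to 4, and the median was -0.379 without PS19 library 1. Gfap, the intermediate filament of astrocytes (chromosome 11, 102887336 to 102900912), had 607, 651, 626 and 596 CPM in PS19_p16KO libraries, against 2750, 2173, 898 and 1680 CPM in PS19 libraries. No PS19_p16KO library reached the lowest PS19 library, and the log2 fold change was -1.60 ± 0.26 (adjusted p = 0.0171). Osmr, the oncostatin M receptor, had 6.54, 4.52, 5.51 and 4.80 CPM in PS19_p16KO libraries, against 27.5, 14.4, 8.41 and 13 CPM in PS19 libraries (log2 -1.56 ± 0.26, adjusted p = 0.00938). Stat3, a transcription factor of cytokine signalling, fell by 0.33 ± 0.07 on the log2 scale (adjusted p = 0.0252), with PS19 library 3 at 59.1 CPM just above the highest PS19_p16KO library at 58.7 CPM. Ggta1 and Aspg, a galactosyltransferase and an asparaginase, fell by 1.21 and 1.55 on the log2 scale, and Aspg overlapped between groups. Serpina3n, a serine protease inhibitor of reactive astrocytes, averaged 162 ± 71.6 CPM in PS19_p16KO and 178 ± 53.8 CPM in PS19 libraries (SD, n = 4 each) and did not pass the test (adjusted p = 0.974).

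Of 16 genes of astrocyte identity 1 was called and 14 had a negative fold change, with a median of -0.163. The libraries did not overlap in 4 of the 16, all lower in PS19_p16KO, against 2.53% of all tested genes. The astrocyte markers Slc1a2, Aqp4 and Gja1 summed to 2505 to 3344 CPM in PS19_p16KO and 3541 to 4372 CPM in PS19 libraries, without overlap, and their part in the reactive astrocyte falls was not tested. Slc1a2 made up most of these sums, at means of 2624 CPM in PS19_p16KO and 3358 CPM in PS19 libraries. The called gene, Slc1a2, the main glutamate transporter, had 2746, 2941, 2151 and 2657 CPM in PS19_p16KO libraries, against 3337, 3765, 3122 and 3208 CPM in PS19 libraries, without overlap (log2 -0.36 ± 0.08, adjusted p = 0.0458). PS19_p16KO library 3, the one rich in choroid plexus genes, was the lowest. Aqp4, the water channel of astrocyte endfeet, averaged 154 ± 13 CPM in PS19_p16KO and 238 ± 57.8 CPM in PS19 libraries (SD, n = 4 each; adjusted p = 0.074).

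Cholesterol synthesis ran the other way. All 20 genes of the pathway had fold changes above 0 on the log2 scale, from 0.104 to 0.457 around a median of 0.311, and 2 of them rose at the threshold. In 8 of the 20 every PS19_p16KO library was above every PS19 library, against 1.56% of all tested genes. Fdps, farnesyl diphosphate synthase, had 32.3, 27.7, 33.6 and 33.8 CPM in PS19_p16KO libraries, against 22.4, 22.4, 24.1 and 24 CPM in PS19 libraries (log2 0.46 ± 0.08, adjusted p = 0.0109). Msmo1, a sterol methyl oxidase, had 74.0, 67.1, 70.5 and 75.5 CPM in PS19_p16KO libraries, against 41.4, 52.4, 62.1 and 58.0 CPM in PS19 libraries (log2 0.42 ± 0.09, adjusted p = 0.0356). WT libraries averaged 30.1 CPM of Fdps and 70.4 CPM of Msmo1. Hmgcs1 and Sqle, which act before and after Fdps, were also higher in every PS19_p16KO library but stayed above the threshold, with adjusted p of 0.075 and 0.0557. The summed level of the list was 1095 to 1237 CPM in PS19_p16KO and 785 to 1058 CPM in PS19 libraries.

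Among genes that sense, carry or take up lipid, 1 of 19 rose and 1 fell. Insig1, which holds the sterol-sensing complex in the endoplasmic reticulum and is itself induced when sterols are low, had 86.3, 70.3, 69.2 and 88.6 CPM in PS19_p16KO libraries, against 54.1, 46.8, 59.2 and 61.9 CPM in PS19 libraries (log2 0.50 ± 0.10, adjusted p = 0.0278). Abca1, which exports cholesterol from cells, had 49.5, 45.3, 54.4 and 45.3 CPM in PS19_p16KO libraries, against 99.3, 86.1, 59.4 and 78.4 CPM in PS19 libraries (log2 -0.73 ± 0.13, adjusted p = 0.0175). Neither gene overlapped between groups. Apoe, the lipid carrier of glia and a member of the microglial program, averaged 2055 ± 152 CPM in PS19_p16KO and 2935 ± 766 CPM in PS19 libraries (SD, n = 4 each; adjusted p = 0.19). Of the 20 synthesis genes none was called without PS19 library 2, 1 without PS19 library 1 or PS19_p16KO library 1 or 2, 4 without PS19 library 4 and 10 without PS19 library 3.

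Promoters of sterol genes are shown for CCAAT, the NF-Y motif, and TCACNCCA, a form of the sterol regulatory element, both counted on either strand, with no overlap of the matches shown. CCAAT stood in 14 of the 15 cholesterol synthesis genes with a promoter entry (93.3%), against 37.5% of all genes with an entry. TCACNCCA stood in 2 of the 15 (13.3%), against 4.2% of all genes with an entry. Of the 6 called rises with an entry, 3 held CCAAT (50.0%) and 1 held TCACNCCA (16.7%). Insig1 is at chr5:28071162-28071411 on the plus strand and Msmo1 at chr8:64733579-64733828 on the minus strand (RefSeq, GRCm38.p6). Capitals mark CCAAT, or ATTGG where it is on the opposite strand, and in Msmo1 also TCACTCCA. Fdps has no entry.
Insig1: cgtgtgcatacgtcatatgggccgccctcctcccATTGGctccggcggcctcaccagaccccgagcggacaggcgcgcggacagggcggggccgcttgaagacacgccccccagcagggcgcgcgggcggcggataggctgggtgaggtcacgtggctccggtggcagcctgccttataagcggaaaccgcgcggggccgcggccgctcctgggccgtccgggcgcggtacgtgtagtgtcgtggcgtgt
Msmo1: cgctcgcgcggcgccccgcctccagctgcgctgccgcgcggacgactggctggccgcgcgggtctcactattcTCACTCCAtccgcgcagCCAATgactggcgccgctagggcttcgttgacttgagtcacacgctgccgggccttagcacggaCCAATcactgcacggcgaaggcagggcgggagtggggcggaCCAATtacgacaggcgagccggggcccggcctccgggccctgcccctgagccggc

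The other rises were few and scattered over functions. Slc30a3, the zinc transporter of glutamatergic vesicles, had 80.2 to 86.7 CPM in PS19_p16KO and 56.0 to 73.5 CPM in PS19 libraries (log2 0.33 ± 0.08, adjusted p = 0.0477). Scg5, the chaperone 7B2 of a prohormone convertase, had 125 to 140 CPM in PS19_p16KO and 96.1 to 117 CPM in PS19 libraries (log2 0.30 ± 0.06, adjusted p = 0.0321). Gipc1, a PDZ adaptor for receptor traffic, rose by 0.23 ± 0.05 (adjusted p = 0.0361), and it was called in none of the 8 fits that left out a library of these groups. Arhgef19 and Cox7a2l, the remaining rises, are described with the p16 genotype below.

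Few neuronal genes passed the test. Of 24 genes of the glutamatergic synapse only Slc30a3 passed (median 0.0536), and of 12 GABA interneuron, 12 dentate granule cell, 14 CA pyramidal and 18 immediate-early genes none passed. The medians of these 4 lists were -0.00994, 0.151, 0.0717 and 0.0333. Calb1, a calcium buffer of dentate granule cells, had 155 to 189 CPM in PS19_p16KO and 140 to 163 CPM in PS19 libraries, with overlap (log2 0.15 ± 0.08, adjusted p = 0.629). Ntrk2, the receptor for brain-derived neurotrophic factor, is in none of these lists and was picked after its values were seen. It fell (log2 -0.24 ± 0.05, adjusted p = 0.0259), and bulk RNA does not show in which cells.

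The title of the study names endothelial cells, and none of 22 endothelial genes, 12 pericyte or smooth muscle genes and 15 oligodendrocyte genes passed the test. The list medians were 0.0618, 0.00449 and 0.0872. The endothelial markers Pecam1, Cdh5 and Cldn5 summed to 49.3 to 67.4 CPM in PS19_p16KO and 48.3 to 60.5 CPM in PS19 libraries. Slc2a1, the glucose transporter of the blood-brain barrier, had 97.2 to 101 CPM in PS19_p16KO and 99.2 to 111 CPM in PS19 libraries (log2 -0.09 ± 0.09, adjusted p = 0.839). Markers of border macrophages (Mrc1, Cd163, Lyve1, Pf4 and F13a1) summed to 4.25 to 6.25 CPM in PS19_p16KO and 5.38 to 5.87 CPM in PS19 libraries, and none of 7 tested genes of that list was called.

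Among cell cycle and senescence genes, calls were found only in the list of secreted factors. Of 17 tested cell cycle inhibitors none passed and 7 had a negative fold change. Their median was 0.025, in a range of -0.728 to 1.63. Cdkn1a, the p21 inhibitor, was at the low end of that range. It averaged 6.89 ± 1.93 CPM in PS19_p16KO and 11.4 ± 3.47 CPM in PS19 libraries (SD, n = 4 each, log2 -0.73 ± 0.21, adjusted p = 0.146). None of 10 proliferation genes passed. Of 19 tested factors that senescent cells secrete, 3 fell and none rose (median -0.226). None was called without PS19 library 1 or 2 or PS19_p16KO library 2 or 4, and 6 were without PS19 library 3. Plau, the plasminogen activator urokinase, fell by 1.10 ± 0.25 (adjusted p = 0.0387) with overlap at PS19 library 3, and Angpt1, an angiopoietin, fell by 0.68 ± 0.14 on the log2 scale (adjusted p = 0.0234).

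Of the 135 calls, 56 were in none of the lists. Serpinf2, which encodes an inhibitor of plasmin, had 0.906, 0.638, 1.06 and 0.764 CPM in PS19_p16KO libraries, against 5.55, 3.27, 1.73 and 2.71 CPM in PS19 libraries (log2 -1.97 ± 0.33, adjusted p = 0.00693). Endou, an endoribonuclease, fell by 1.79 ± 0.38 on the log2 scale (adjusted p = 0.0261). The next genes were picked after their values were seen. Cybrd1, an iron reductase, differed from most falls in that PS19 library 3 did not stand low, with 5.87, 5.42, 6.04 and 4.10 CPM in PS19_p16KO libraries, against 10.6, 9.11, 9.12 and 8.96 CPM in PS19 libraries (log2 -0.81 ± 0.14, adjusted p = 0.00693). Mpeg1, which encodes the pore-forming protein perforin-2 of macrophages, Cd86, a co-stimulatory molecule, and the TGF-beta receptors Tgfbr1 and Tgfbr2 fell by 1.44, 1.26, 0.58 and 0.67 on the log2 scale.

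**Figure D3:**
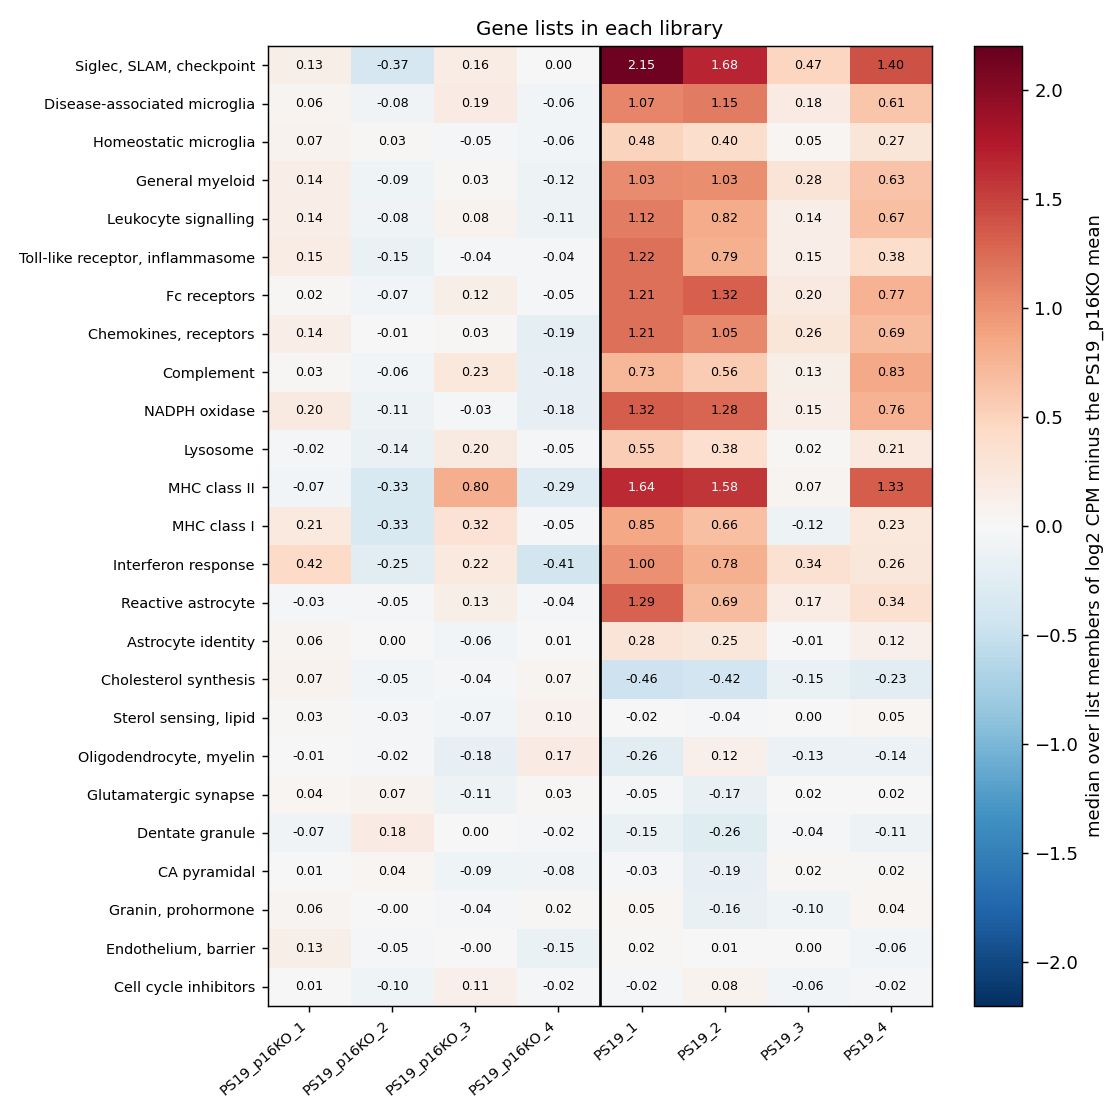
Median over the tested members of each list of log2 CPM minus the PS19_p16KO mean, for the 4 PS19_p16KO and the 4 PS19 libraries (columns). PS19 libraries 1 and 2 are the most raised in the immune and reactive astrocyte lists except complement, where library 4 is highest at 0.827, and library 3 is near the PS19_p16KO libraries in most lists.

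For the genes that fell, the spread between libraries was wider within PS19. Over the 127 falls, the median log2 level relative to the PS19_p16KO mean was 0.08, -0.06, 0.07 and -0.08 in PS19_p16KO libraries 1 to 4, against 1.5, 1.33, 0.43 and 0.85 in PS19 libraries 1 to 4. PS19 library 1 held the highest PS19 value in 94 of the 127 genes and library 3 the lowest in 112. The falls were called on these libraries, so the gap between groups is a description, while the order of the libraries within PS19 was no part of the call rule. In the libraries without the transgene the same median ran from -0.09 to 0.07 in p16KO and from -0.14 to -0.04 in WT. Among the 8 rises the PS19 libraries were even, at -0.46, -0.48, -0.40 and -0.32.

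By list, the median SD of log2 CPM was 0.232 in PS19_p16KO and 0.437 in PS19 for the disease-associated microglial genes, with the larger SD in PS19 for 19 of 23 genes. It was 0.232 in PS19_p16KO and 0.559 in PS19 for reactive astrocyte genes (14 of 19 larger in PS19). For leukocyte signalling it was 0.231 in PS19_p16KO and 0.425 in PS19 (35 of 40 larger in PS19). The order was the other way for fibroblast and meningeal genes, at 0.570 in PS19_p16KO and 0.232 in PS19, as for the interferon list above. Over all tested genes it was 0.140 in PS19_p16KO and 0.138 in PS19, and the SD was larger in PS19 for 8103 of 16372. In p16KO and WT libraries the list medians were 0.146 and 0.209 for disease-associated microglial genes. They were 0.237 and 0.219 for reactive astrocyte genes, and 0.176 and 0.242 for leukocyte signalling. The edgeR fit shared its estimate of spread over all 4 groups, so its p-values do not rest on the spread within PS19 alone. The number of calls depended on the libraries of both groups. It came to 49, 36, 92 and 46 without PS19_p16KO libraries 1 to 4, and to 46, 29, 347 and 124 without PS19 libraries 1 to 4.

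Without the transgene, loss of p16 gave no call. Between p16KO and WT, 0 of 16372 genes passed by edgeR's quasi-likelihood test, 653 were under 0.05 before adjustment (3.99%), and the counts were 18 with DESeq2 and 11 with limma-voom. No library is contrasted in both this comparison and the one above, but the fit estimated the spread for both from all 16 libraries. Of the 127 falls, 47 had a negative fold change between p16KO and WT, and their median there was 0.081. Of the 8 rises all 8 had a positive one, with a median of 0.0914.

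Between p16KO and WT, 3.99% of all tested genes were under an unadjusted p of 0.05 in either direction. Of the 127 falls, 8 were lower in p16KO at that level and 7 were higher. Of the rises 2 were higher. These 10 genes were picked by their values. Arhgef19, a RhoA exchange factor on chromosome 4 (141239499 to 141257564), had 18.2, 21.3, 20.9 and 22.7 CPM in PS19_p16KO libraries, against 11, 13, 10.1 and 11.9 CPM in PS19 libraries. It averaged 22.1 CPM in p16KO and 12 CPM in WT. The rise was 0.85 ± 0.14 on the log2 scale with the transgene (adjusted p = 0.00947) and 0.88 ± 0.14 without it (adjusted p = 0.0763). Padi2, a peptidylarginine deiminase of glia (chromosome 4, 140906344 to 140952586), averaged 52.6 CPM in PS19_p16KO and 115 CPM in PS19, and 49.7 CPM in p16KO and 74.8 CPM in WT.

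Klhl9, a ubiquitin ligase adaptor (chromosome 4, 88718292 to 88722465), lies on the same chromosome as Cdkn2a. It averaged 101 CPM in PS19_p16KO and 119 CPM in PS19, and 104 CPM in p16KO and 120 CPM in WT (log2 -0.24 ± 0.05 with the transgene and -0.21 ± 0.05 without it). Of 1000 genes tested on chromosome 4, 16 were called, 1.6% against 0.825% of all genes and the highest share of any chromosome. These calls include Klhl9, Gm12655, Padi2 and Arhgef19, which moved the same way between p16KO and WT at an unadjusted p under 0.05. They also include immune genes described above, such as C1qa, C1qb, C1qc, Laptm5 and Csf3r, which did not. Also picked by their values, Gpatch11 (78835567 to 78848308), Eif2ak2, the kinase PKR, and Cox7a2l, a factor in respiratory supercomplexes (83501918 to 83517330), lie on chromosome 17. Of 765 genes tested on that chromosome 7 were called, 0.915% against 0.825% of all genes. Gpatch11 averaged 29.9 CPM in PS19_p16KO and 40.4 CPM in PS19, and 30.7 CPM in p16KO and 43.4 CPM in WT. Cox7a2l averaged 88.6 CPM in PS19_p16KO and 67.2 CPM in PS19, and 85.2 CPM in p16KO and 68.4 CPM in WT, and its groups overlapped only through PS19_p16KO library 4, at 74.1 CPM.

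Gm6166, annotated as a processed pseudogene on chromosome 9, had the largest fall of all tested genes, with 0.525, 0.319, 0.318 and 0.218 CPM in PS19_p16KO libraries, against 9.05, 8.40, 7.17 and 8.63 CPM in PS19 libraries. It had 0.36, 0.461, 3.95 and 0.104 CPM in p16KO libraries, of which library 3 stood high, against 5.89, 7.56, 7.12 and 7.62 CPM in WT libraries. As a copy of another gene its counts are uncertain. The remaining genes of the 10, Tcp11l1, Gm12655 and Pirb, were lower in PS19_p16KO by 0.89, 1.21 and 1.92 on the log2 scale and in p16KO by 0.45, 0.81 and 1.15.

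The difference of the p16 effects with and without the transgene was tested as an interaction. It passed for 1 of 16372 genes (0.00611%), with 890 at an unadjusted p under 0.05 (5.44%). That gene was C3ar1, which was lower by 1.73 in PS19_p16KO against PS19 and higher by 0.78 in p16KO against WT on the log2 scale, a difference of -2.52 ± 0.32 (adjusted p = 0.00248). Its WT libraries averaged 1.14 CPM and its p16KO libraries 1.96 CPM. For Clec7a the difference was -3.88 ± 0.62 (adjusted p = 0.0505) and for Itgax -4.27 ± 0.87 (adjusted p = 0.131), so the larger falls were not shown to be specific to the transgenic background by this test. DESeq2 called 86 genes in the interaction and limma-voom none.

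**Figure D4:**
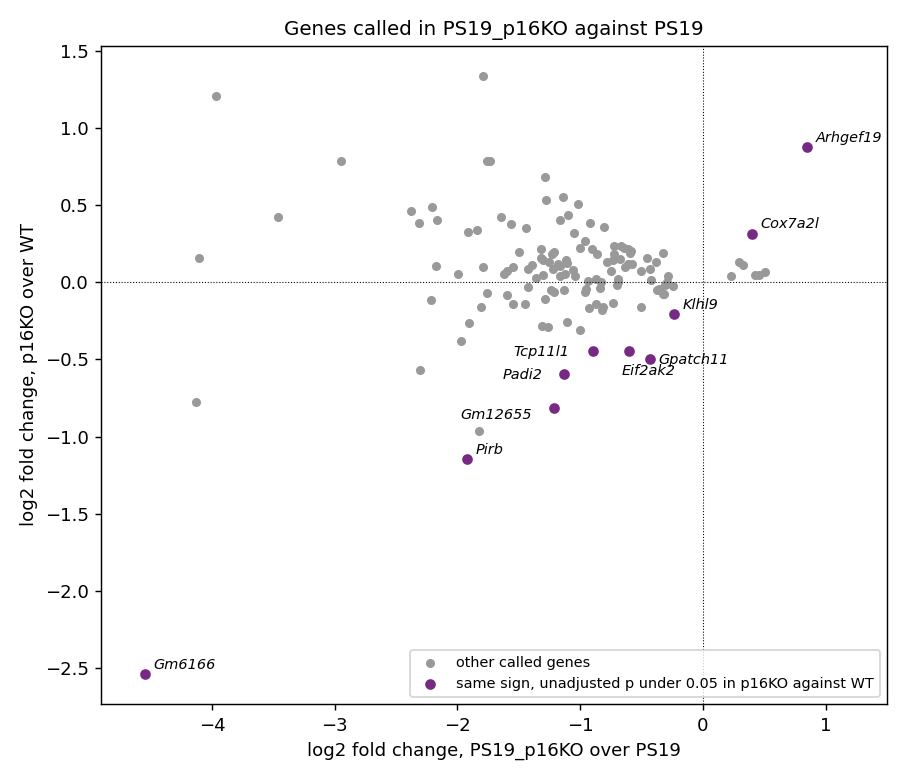
Log2 fold change of PS19_p16KO over PS19 (x axis) and of p16KO over WT (y axis) for the 135 called genes, with no library in common. Most falls lie near 0 on the y axis, and the 10 purple genes are those with the same sign and an unadjusted p under 0.05 in both.

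Choroid plexus genes differed by library rather than by group. All 19 tested genes were higher on average in PS19_p16KO, at a median log2 fold change of 3.32, yet none was called, and PS19_p16KO library 3 alone stood high. Ttr, the transthyretin carrier of thyroid hormone, had 21.9, 7.39, 5122 and 19.8 CPM in PS19_p16KO libraries, against 12.3, 23, 7.71 and 30.8 CPM in PS19 libraries (log2 6.13 ± 2.62, adjusted p = 0.521). Kl, the klotho co-receptor, had 26.2, 28.5, 281 and 24 CPM in PS19_p16KO libraries, against 21.7, 23.3, 25.9 and 28.2 CPM in PS19 libraries. Apart from library 3, the groups overlapped in both genes. Clic6, Prlr, F5 and Lbp reached 176, 87.8, 78.6 and 47.9 CPM in that library.

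Without PS19_p16KO library 3 the median of the 19 genes was -0.413, with 14 negative and 5 positive. High levels also occurred without the transgene, with group means of 793 CPM of Ttr in p16KO and 193 CPM in WT, carried by p16KO library 4 and WT library 1. The 12 tested genes of fibroblasts and meninges had a median of 0.351 with none called, and Igf2, which choroid plexus and meninges express, had 20.9, 17.1, 248 and 20.9 CPM in PS19_p16KO libraries, against 21.1, 30.1, 27.5 and 27.0 CPM in PS19 libraries. Leaving PS19_p16KO library 3 out of the fit gave 92 calls, 84 lower and 8 higher, of which 77 were among the 135. The median of the disease-associated microglial list was then -0.905 and that of the cholesterol list 0.335, so neither direction depended on that library.

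**Figure D5:**
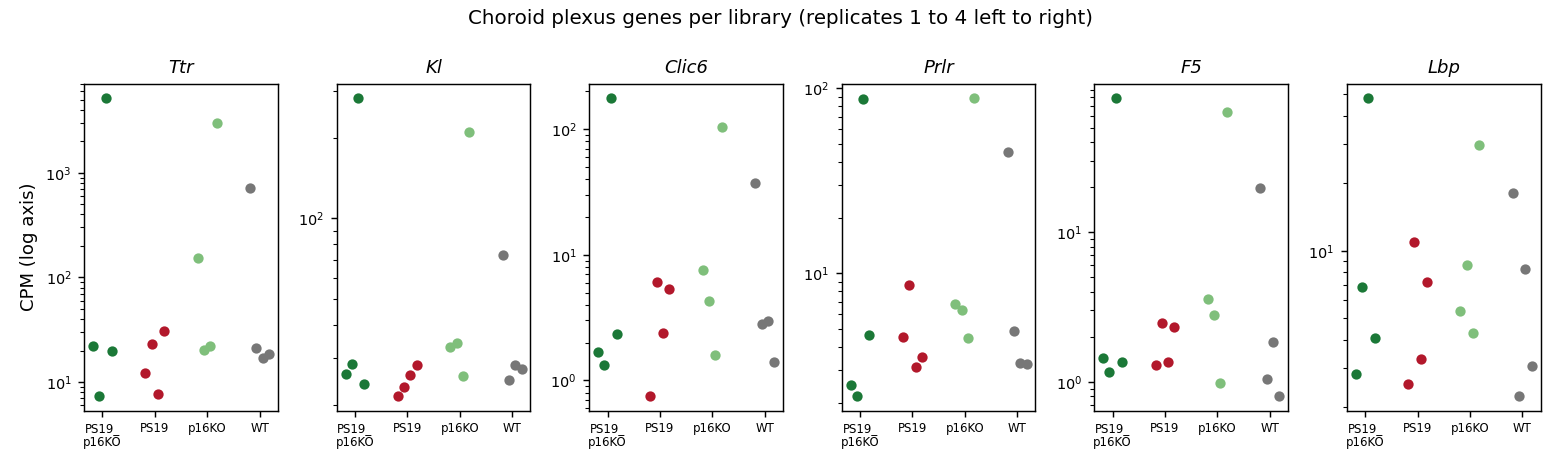
CPM (log axis) of 6 choroid plexus genes in each library of PS19_p16KO, PS19, p16KO and WT. PS19_p16KO library 3 reaches 5122 CPM of Ttr while the other libraries of that group and of PS19 stay at 30.8 CPM or below.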

How the data were processed

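Per the file headers and labels, the authors deposited raw counts per gene for 16 libraries of total hippocampal RNA, with 49671 gene rows and 92 ERCC spike-in rows. The submitters' processing notes name the build GRCm38 and, without role or order, DESeq2, featureCounts, STAR 2.5.2b, Subread 1.5.2 and Trimmomatic 0.36. The strand setting was not given in the sources used here. Overlapping genes and close copies may share reads. ERCC rows, 0.574% to 1.06% of counts, were left out. Symbols and coordinates came from GENCODE for 49412 rows.

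Counts were tested with edgeR 4.0.16 in R 4.3.3: filterByExpr with a minimum count of 10, TMM scaling, robust quasi-likelihood, all 16 libraries with 1 mean per group, Benjamini-Hochberg adjustment over 16372 genes and a threshold of 0.05. Fold changes carry a standard error from the F statistic. Other settings tried were DESeq2 1.42.0, limma-voom (limma 3.58.1) with quality weights, RLE scaling, other filters, a replicate block, a term for the digit of the library name, only the compared groups, no robust dispersion and leaving out each library. The covariate fits and the exclusion of the 3 choroid-rich libraries were added after seeing the data. Chi-square over degrees of freedom between replicates was 4.56 to 24.3, beyond sampling noise. The test was checked on simulated counts.

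Named genes are Cdkn2a, Prnp and Mapt, the 15 largest non-overlapping falls and up to 15 rises with an average log2 CPM over 0, called members of each list (at most 6), or the 2 most abundant members of a list with no call. Other genes given with values were chosen after their values were seen. The members and lists were chosen with earlier results of these data known. Some genes that this rule names are left out of the text.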

Additional observations from a re-analysis of the deposited data

Results flagged for a closer look

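In 214 sets of 4 libraries, from 107 named genes in PS19_p16KO and PS19, a single library stood far from the other 3 in 11 sets, 5.14% of the sets, and chance alone gives about 1 in 20. All 11 were in PS19_p16KO. Library 3 of that group held 5122 CPM of Ttr, 281 CPM of Kl, 176 CPM of Clic6, 87.8 CPM of Prlr, 78.6 CPM of F5 and 47.9 CPM of Lbp, all choroid plexus genes, and 248 CPM of Igf2. The choroid plexus genes were named for their mean level over all libraries, which the libraries rich in them raise. It also held 71.2 CPM of Ifi27, an interferon-response gene, against 25.9 to 31.1 CPM in the other PS19_p16KO libraries. Library 4 held 9.55 CPM of Hbb-bs and 5.24 CPM of Hba-a1, the chains of haemoglobin, against at most 0.638 CPM in the other PS19_p16KO libraries. Library 2 held 172 CPM of Prox1, a marker of dentate granule cells.

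The p16 effect on C3ar1 differed with the transgene by -2.52 on the log2 scale, by the interaction term of edgeR's quasi-likelihood test (adjusted p = 0.00248). It was lower in all 4 PS19_p16KO libraries than in any PS19 library.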

How the results depend on the processing

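The 135 calls between PS19_p16KO and PS19 moved by more than 1.5 times with DESeq2 (272), limma-voom (77), a term for the library-name digit (87), only the compared groups (8) and without the 3 choroid-rich libraries (62). Leaving out 1 library gave 29 to 347. RLE scaling (134), no filter (149), CPM above 1 in 4 libraries (127), no robust dispersion (144), the choroid score (182) and the library-name number (185) stayed within that range. No call changed sign, which could hardly occur for the calls without overlap between libraries. Between p16KO and WT, where the count was 0, DESeq2 gave 18, limma-voom 11, no filter 4, only the compared groups 9, without the choroid-rich libraries 7, the choroid score 4, the library-name number 2, and leaving out 1 library 0 to 2. For the interaction, where the count was 1, RLE scaling gave 6, DESeq2 86, limma-voom 0, no filter 20, the digit term 13, no robust dispersion 2, the choroid score 5, the library-name number 57, and leaving out 1 library 1 to 160. The interaction has no fit with only the compared groups, since all 4 groups enter it. The cause of these shifts was not tested. The replicate numbers did not pair the samples (same-number correlations of -0.137 to 0.119), and the replicate block gave 134 calls between PS19_p16KO and PS19, 0 between p16KO and WT and 5 in the interaction. The Cdkn2a difference was -0.211 CPM, and -0.272 to -0.147 CPM without 1 library, where the exact permutation p was 0.0571, the smallest that 3 against 4 allows. Among single named genes, 1787 results kept their side of the threshold, 396 lost the call, 5 gained it and 0 reversed. Cdkn2a counts of 0 to 8 per library limit what its level can show.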
